A study of Rattus norvegicus with 48 samples.

Results

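The 4 genes described here are used as markers of excitatory neurons and synapses, and they were measured around silicon electrodes implanted in rat motor cortex. They were *Slc17a7* (ENSRNOG00000020650), *Snap25* (ENSRNOG00000006037), *Camk2a* (ENSRNOG00000018712) and *Map2* (ENSRNOG00000011841). They were chosen by these identifiers, and all 4 were present in both deposited tables, which together list 18997 distinct genes. All 4 passed the low-count filter of every comparison, and their counts ran from 210 to 42769 per library.

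Wild-type male Sprague-Dawley rats, 12 to 14 weeks old at surgery, carried single-shank silicon probes in the primary motor cortex, and small areas were excised from fixed sections with a laser (laser capture microdissection). Near areas were taken up to 100 µm from the probe and far areas at roughly 500 µm, in the same rats, at 24 h (3 rats), 1 week (5 rats) and 6 weeks (4 rats) after implantation. Naive cortex came from 3 rats with no implant, at the same 2 positions. The 48 libraries comprised 36 from the 12 implanted rats and 12 from the naive rats. Each far sample was pooled from small areas at equal distances around the shank, per the labels' protocols. The age of the naive rats is not given separately.

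Excitatory pyramidal cells are the main projection neurons of motor cortex and release glutamate. *Slc17a7* encodes the vesicular glutamate transporter VGLUT1, which fills synaptic vesicles with glutamate. *Snap25* encodes a SNARE protein of the presynaptic membrane that drives vesicle fusion, and it is made by inhibitory neurons too. *Camk2a* encodes the alpha subunit of calcium/calmodulin-dependent kinase II, a major protein of excitatory postsynaptic densities whose mRNA is also carried into dendrites. *Map2* encodes a microtubule-associated protein of neuronal cell bodies and dendrites. The set thus covers vesicle filling, vesicle release, postsynaptic signalling and the dendritic cytoskeleton.

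The *Slc17a7* promoter is shown because this gene, unlike the other 3, was close to its far level at 1 week. The RefSeq promoter table (GRCr8) held windows of 300 bases, 250 before and 50 after the start, for 3 of the 4 genes, and *Snap25* was not among them. The *Slc17a7* window lies on the plus strand at chr1:104785955-104786254, and the start used to place it falls 33 bases inside the annotated gene. Capitals mark GGGCGG, read on either strand.
Slc17a7: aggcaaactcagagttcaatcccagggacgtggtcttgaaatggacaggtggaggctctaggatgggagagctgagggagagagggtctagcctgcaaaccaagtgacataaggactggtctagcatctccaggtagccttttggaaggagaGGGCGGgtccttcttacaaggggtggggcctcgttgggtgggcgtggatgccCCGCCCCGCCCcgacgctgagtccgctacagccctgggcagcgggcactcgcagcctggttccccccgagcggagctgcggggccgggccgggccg
GGGCGG matched 3 times in this window, with 2 of the matches overlapping, and 33.1% of the 33469 promoters in the table hold it. GC content was 64.7%, against a median of 51.7%. The *Camk2a* window had 61.3% GC and 0 matches. Its start fell 401 bases inside the annotated gene, so the window lies wholly within the gene and is not compared with that of *Slc17a7*. The *Map2* window was placed by a start 173652 bases inside the annotated gene, so it is not described. A match describes letters in a window and is not evidence of a bound site, and no deposited measurement bears on these promoters.

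Library totals ran from 3363892 to 12844185 counts. Fewer than 6000 genes were detected in 4 libraries: the near libraries of rat 29 (right hemisphere, 24 h), rat 20 (left, 1 week) and rat 23 (right, 1 week), and the left far library of rat 23. Values without them stand beside the main results, with TMM factors estimated again and rat 20 left without near tissue. The values by hemisphere are an exception, since they keep the TMM factors estimated with all libraries. The 2 most abundant genes of a library took a larger share of the counts in near than in far tissue in 12 of 12 implanted rats, and fewer genes were detected near than far in 8 of 12. The part of these differences in the results was not tested. Levels are given as CPM, counts brought to one library size with TMM factors, for the libraries of a rat summed per distance. Gene lengths were not used, so CPM are compared between samples and not between genes. Glial, vascular and other neuronal markers carry no symbol in the tables used, so the cell makeup of the pieces was not analysed here. Every comparison is between tissue pieces, and CPM are shares of the counts. Fewer neurons, less RNA per neuron and a larger share of counts from other genes cannot be told apart.

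Near the shank the 4 genes were lower than in far tissue of the same rat in 42 of 48 rat-by-gene pairs. *Snap25* was lower near in 12 of 12 rats, *Map2* in 11, *Camk2a* in 10 and *Slc17a7* in 9. Without TMM scaling these counts were 12, 11, 12 and 10. All 4 genes were lower together in 6 of 12 rats. In 39 of 44 pairs the level was lower near without the libraries of few genes, with *Snap25* in 11 of 11 rats, *Map2* in 10, and *Camk2a* and *Slc17a7* in 9 each. Among all genes tested, 0.521% were lower near in all 12 rats, and *Snap25* was one of them. Among the 255 genes at least as abundant as *Camk2a* the share was 9.41%. Most genes leaned the same way: in the mean of the 3 times, 64.1% of all genes had a log2 fold change below 0. Of the 255 abundant genes 71.0% did. No share of all genes was computed for the counts of pairs.

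**Figure D1:**
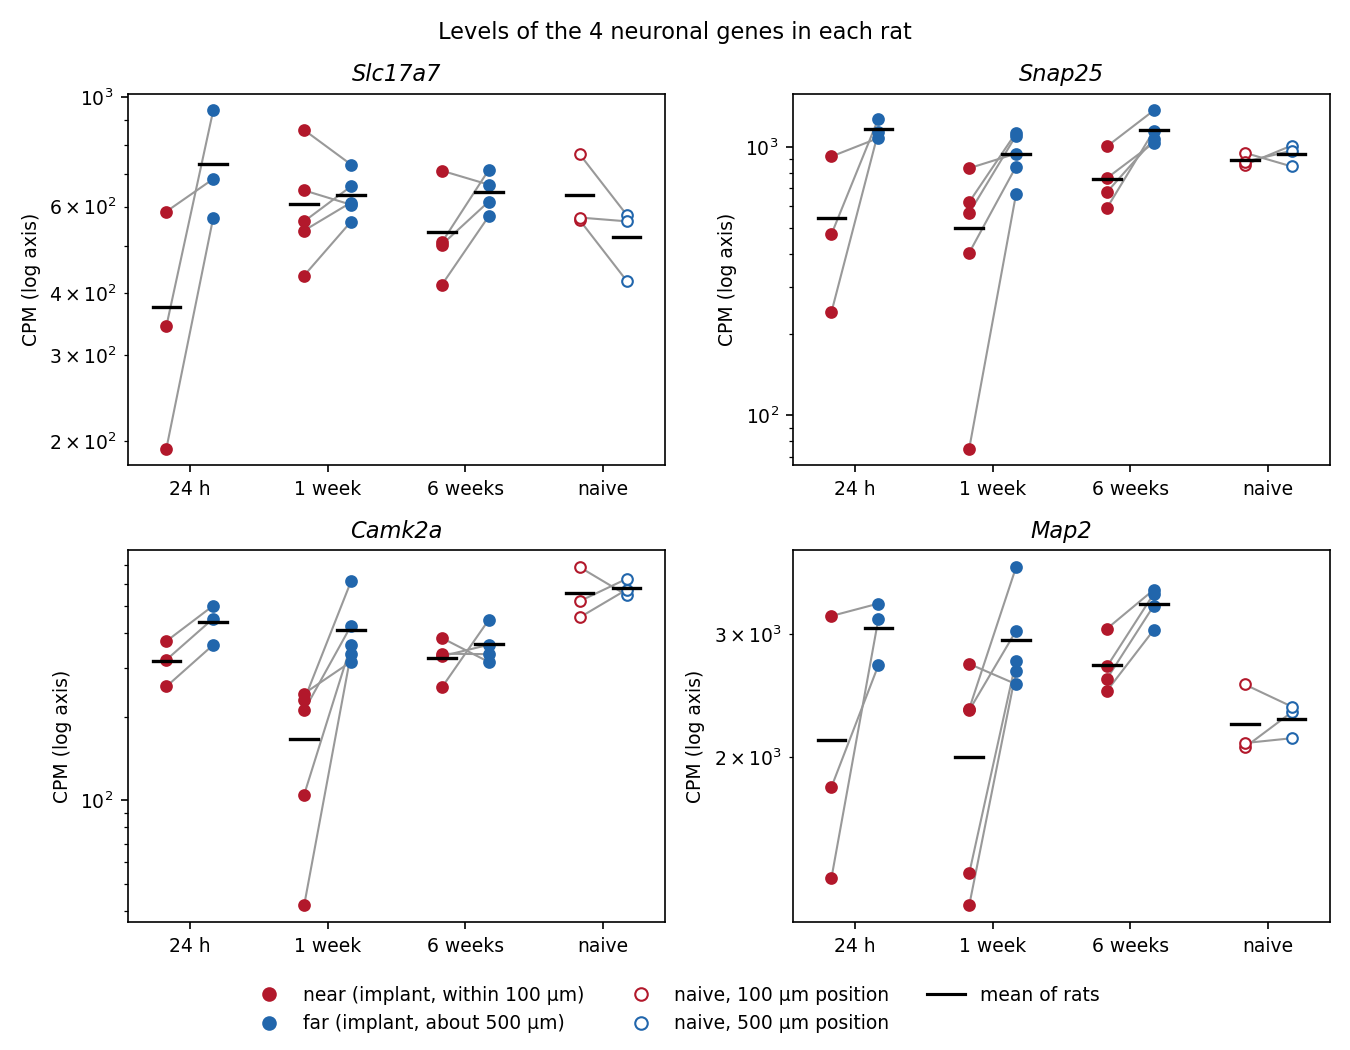
CPM (log axis) of each gene in each rat by time, with near (red) and far (blue) values of a rat joined by a line, naive rats as open circles at the 2 matching positions, and black bars for the mean of rats. The lowest near values, 75.2 CPM for *Snap25* and 42.0 CPM for *Camk2a*, came from 2 different rats at 1 week.

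Averaged over the 3 times with equal weight, each of the 4 genes fell near the shank by edgeR's quasi-likelihood test with the rat as a block. *Map2* fell by 0.52 ± 0.08 (SE) on the log2 scale (adjusted p = 2.05e-07) and *Snap25* by 1.05 ± 0.16 (adjusted p = 6.47e-06). *Camk2a* fell by 0.72 ± 0.17 (adjusted p = 0.00478) and *Slc17a7* by 0.49 ± 0.14 (adjusted p = 0.0270). In the same test 1.13% of the 14399 genes were called lower. These 4 are abundant transcripts. Among the 255 genes at least as abundant as *Camk2a*, 34.5% were called in either direction, with a median log2 fold change of -0.26.

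Over all 14399 genes the median of this mean effect was -0.39 under TMM scaling and -0.24 under the size factors of DESeq2. Relative to the TMM median, *Snap25* lay at -0.65, *Camk2a* at -0.33, *Map2* at -0.12 and *Slc17a7* at -0.10. Without the 4 libraries of few genes the median was -0.26, and relative to it *Snap25* lay at -0.82, *Camk2a* at -0.31, *Slc17a7* at -0.27 and *Map2* at -0.20. *Snap25* (-1.08, adjusted p = 3.23e-09) and *Map2* (-0.46, adjusted p = 0.00211) then passed the test. *Camk2a* (-0.57, adjusted p = 0.157) and *Slc17a7* (-0.53, adjusted p = 0.0802) did not.

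At 24 h the 2 vesicle genes had the most negative fold changes. *Slc17a7* measured 194 CPM near and 570 far in rat 25, 343 and 941 in rat 29, and 587 and 683 in rat 30. *Snap25* measured 243 and 1133 CPM in rat 25, 473 and 1271 in rat 29, and 920 and 1078 in rat 30. Rats 25 and 29 thus held most of the difference, while in rat 30 they stood at 85.9% and 85.4% of the far value. Near and far values overlapped for *Slc17a7* and did not overlap for *Snap25*, as for 6.42% of all genes. Without TMM neither gene overlapped, and the share of all genes was not computed there.

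*Map2* followed the same order of rats at 24 h, with 1341 against 3149 CPM in rat 25, 1811 against 2704 in rat 29 and 3184 against 3317 in rat 30. *Camk2a* did not: it measured 320 against 451 CPM in rat 25, 374 against 501 in rat 29 and 257 against 362 in rat 30. Under TMM the *Camk2a* difference lay between -0.50 and -0.42 on the log2 scale in the 3 rats, and that of *Snap25* ran from -2.22 to -0.23. Without TMM *Camk2a* ran from -0.95 to -0.34 and *Snap25* from -2.07 to -0.33. Without the library of few genes *Camk2a* in rat 29 measured 222 against 501 CPM, a difference of -1.17.

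By edgeR, *Map2* (-0.63 ± 0.16, adjusted p = 0.0496) and *Slc17a7* (-1.10 ± 0.27, adjusted p = 0.0497) passed the threshold at 24 h, both narrowly. *Snap25* (-1.31 ± 0.31, adjusted p = 0.0567) and *Camk2a* (-0.48 ± 0.33, adjusted p = 1) did not. The share of all genes called lower was 0.0903%, and 3.14% of genes as abundant as *Camk2a* were called in either direction. Without the library of rat 29 with few genes, and the 3 such libraries of 1 week in the same fit, *Snap25* passed (-1.44, adjusted p = 0.00102). *Slc17a7* (-1.14, adjusted p = 0.105) and *Map2* (-0.63, adjusted p = 0.223) then missed it.

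At 1 week *Camk2a* and *Snap25* had the most negative fold changes near the shank, and *Slc17a7* stood close to its far level. *Camk2a* was the lower with all rats, but without the libraries of few genes (*Snap25* -1.17, *Camk2a* -0.83), without rat 10 (-1.47 and -1.43) and without rat 20 (-1.26 and -1.14) *Snap25* was. *Camk2a* measured 242 CPM near and 315 far in rat 9, 105 and 361 in rat 10, 42.0 and 337 in rat 20, 211 and 424 in rat 22, and 229 and 613 in rat 23. Every near value lay below every far value, which held for 0.986% of all genes. *Slc17a7* measured 647 and 605 CPM in rat 9, 537 and 612 in rat 10, 859 and 731 in rat 20, 435 and 559 in rat 22, and 560 and 660 in rat 23. Rats 9 and 20 were higher near than far for this transporter, and the groups overlapped.

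*Snap25* measured 623 CPM near and 1129 far in rat 9, 832 and 943 in rat 10, 567 and 1101 in rat 20, 75.2 and 667 in rat 22, and 403 and 844 in rat 23. The near value of rat 22 was 11.3% of its far value, while rat 10 kept 88.2%. *Map2* measured 2332 and 3032 CPM in rat 9, 2344 and 3741 in rat 10, 1225 and 2655 in rat 20, 1362 and 2745 in rat 22, and 2718 and 2542 in rat 23. Rat 23 was the only implanted rat in which *Map2* was higher near than far. The rat with the lowest *Snap25* was thus not the rat with the lowest *Camk2a*, since *Camk2a* was lowest in rat 20, at 12.5% of its far value.

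*Camk2a* fell by 1.50 ± 0.27 on the log2 scale at 1 week (edgeR adjusted p = 0.000107), *Snap25* by 1.19 ± 0.24 (adjusted p = 0.00343) and *Map2* by 0.61 ± 0.12 (adjusted p = 0.000780). *Slc17a7* differed by -0.08 ± 0.21 (adjusted p = 0.988), and 0.14 was the value under DESeq2 size factors. The share of all genes called lower was 0.34%, and 13.3% of genes as abundant as *Camk2a* were called. The median of all genes stood at -0.66 at 1 week under TMM, -0.47 under DESeq2 size factors and -0.24 without the 4 libraries of few genes. Relative to the TMM median, *Camk2a* lay at -0.83, *Snap25* at -0.53, *Map2* at 0.05 and *Slc17a7* at 0.58. Among the 255 genes at least as abundant as *Camk2a* the median was -0.35 under TMM. Relative to the median without the 4 libraries of few genes, *Snap25* lay at -0.93, *Camk2a* at -0.59, *Map2* at -0.20 and *Slc17a7* at 0.08. The sign of *Map2* thus depended on the reference used.

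The 1 week result rested partly on the libraries of few genes. The only near library of rat 20 was among them, so this rat dropped out without them. *Camk2a* then differed by -0.83 (edgeR adjusted p = 0.773) and *Map2* by -0.44 (adjusted p = 0.754), while *Snap25* still fell by 1.17 (adjusted p = 0.00508). *Slc17a7* differed by -0.16 (adjusted p = 1). *Camk2a* thus moved from -1.50 to -0.83 on the log2 scale, and its direction stayed negative. With 1 library left on each side, rat 23 measured 289 against 324 CPM for *Camk2a*, where all its libraries gave 229 against 613. Near *Camk2a* still lay wholly below far *Camk2a* among the remaining libraries.

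**Figure D2:**
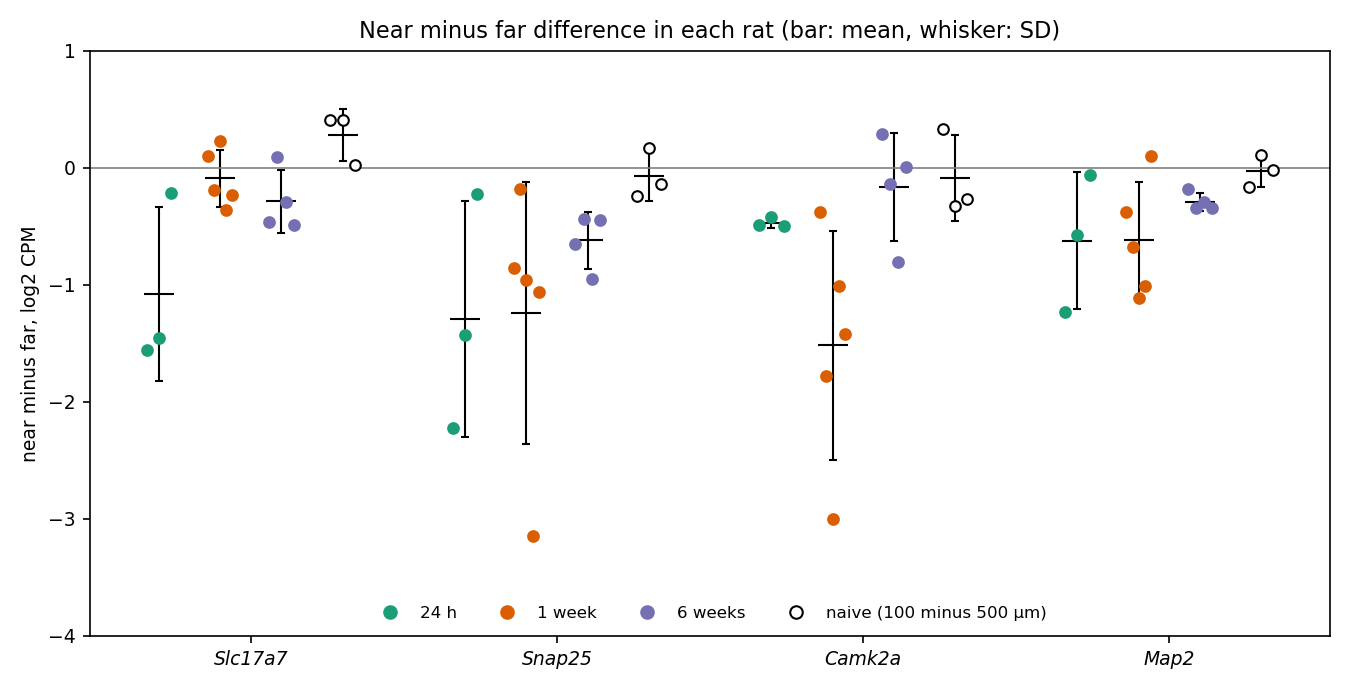
Near minus far difference in log2 CPM for each rat (points), with mean and SD (bar and whiskers), by gene and time, and the 100 minus 500 µm difference of naive rats as open circles. Values are scaled by TMM, and *Snap25* at 1 week had the widest spread between rats (SD 1.12, and 1.24 without TMM).

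At 6 weeks none of the 4 genes passed edgeR's test. *Snap25* measured 678 CPM near and 1065 far in rat 2, 765 and 1035 in rat 11, 592 and 1147 in rat 17, and 1004 and 1366 in rat 19. All near values lay below all far values, as for 2.52% of genes. *Map2* measured 3053 and 3472 CPM in rat 2, 2589 and 3295 in rat 11, 2488 and 3042 in rat 17, and 2695 and 3428 in rat 19. It was lower near in each of the 4 rats, by -0.29 ± 0.08 (SD, n = 4) on the log2 scale, although the 2 groups overlapped. A lower near value in every rat at 6 weeks held for 7.16% of all genes and 29% of genes at least as abundant as *Camk2a*. Without TMM the *Map2* difference was -0.57 ± 0.22, from -0.81 to -0.27, and the groups did not overlap. The share of all genes without TMM was not computed.

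*Camk2a* at 6 weeks measured 384 CPM near and 315 far in rat 2, 330 and 363 in rat 11, 255 and 446 in rat 17, and 337 and 336 in rat 19. *Slc17a7* measured 416 and 574, 710 and 665, 502 and 614, and 508 and 713 CPM in the same rats. Under TMM neither gene separated near from far tissue, and *Camk2a* was lower near in 2 of the 4 rats. Without TMM *Camk2a* was lower near in 4 of 4 rats, by -0.44 ± 0.23 on the log2 scale (SD, n = 4) against -0.16 ± 0.46 with it. Its near values without TMM lay wholly below far values, and the share of all genes that did so was not computed. Leaving out TMM shifts the near-far difference of all genes of a rat by the same amount. In rat 2 it moved *Camk2a* from 0.29 to -0.34 and *Slc17a7* from -0.46 to -1.09.

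The fitted differences at 6 weeks were -0.64 ± 0.26 for *Snap25*, -0.31 ± 0.14 for *Map2*, -0.30 ± 0.23 for *Slc17a7* and -0.18 ± 0.29 for *Camk2a* (adjusted p = 1 for each). Of the 4 genes, 0 were called by edgeR or DESeq2, and 2 (*Snap25* and *Map2*) had an unadjusted p under 0.05 in edgeR. The share of all genes called lower was 0.0139%, and 2.75% of genes as abundant as *Camk2a* were called. Without the libraries of few genes, all of them from the other times, the 4 values were -0.62, -0.29, -0.29 and -0.16.

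Whether the near-far difference itself changed with time was tested in the same fit. None of the 4 genes was called by edgeR in any of the 3 pairs of times, for which 0%, 0.0278% and 0.0208% of all genes were called (1 week against 24 h, 6 weeks against 1 week, 6 weeks against 24 h). From 24 h to 1 week the difference of *Slc17a7* moved by 1.01 ± 0.34 toward the far level, and that of *Camk2a* by -1.01 ± 0.43 away from it. Their unadjusted p were 0.00309 and 0.0184, and the adjusted p was 1 for both. DESeq2 called *Slc17a7* here (1.05, adjusted p = 0.0436) and none of the other 3. *Snap25* moved by 0.12 ± 0.39 and *Map2* by 0.02 ± 0.20. Without the 4 libraries of few genes the *Camk2a* value was -0.11 and that of *Slc17a7* 0.98, with an adjusted p of 1 for both in edgeR.

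From 1 week to 6 weeks the difference of *Camk2a* moved by 1.32 ± 0.40 (unadjusted p = 0.000936, edgeR adjusted p = 0.749). It was the only one of the 4 with an unadjusted p under 0.05, and DESeq2 called 0 of the 4. From 24 h to 6 weeks only *Slc17a7* had an unadjusted p under 0.05 (difference 0.79 ± 0.36, edgeR unadjusted p 0.0267, adjusted p 1), and DESeq2 again called 0. The *Camk2a* value from 1 week to 6 weeks was 0.67 without the libraries of few genes, and the *Slc17a7* value from 24 h to 6 weeks 0.85.

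Ratios between the genes within a sample do not depend on how libraries are scaled. The log2 ratio of *Slc17a7* to *Camk2a* exceeded its far value in near tissue of 5 of 5 rats at 1 week, by 1.43 ± 1.10 (SD, n = 5). At 24 h it was lower near in 2 of 3 rats (-0.61 ± 0.77, n = 3), and at 6 weeks in 2 of 4 (-0.12 ± 0.59, n = 4). In naive rats it was higher at the 100 µm position in 3 of 3 (0.37 ± 0.34, n = 3). Without the libraries of few genes the ratio was higher near in 3 of 4 rats at 1 week (0.68 ± 0.67, n = 4), and its 24 h mean was -0.41 ± 0.67 (n = 3).

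The ratio of *Snap25* to *Map2* compares the transcript of a presynaptic protein with that of a protein of cell bodies and dendrites. Where in the cell these transcripts lay was not measured. It was lower near the shank in 10 of 12 rats, by -0.54 ± 0.70 on the log2 scale (SD, n = 12), in 3 of 3 rats at 24 h, 3 of 5 at 1 week and 4 of 4 at 6 weeks. The naive difference was -0.04 ± 0.09 (n = 3). Without the libraries of few genes the ratio was lower near in 10 of 11 rats (-0.62 ± 0.71, n = 11). The ratio of *Slc17a7* to *Snap25*, both vesicle genes, was higher near in 9 of 12 rats, in 9 of 11 without those libraries, and at 100 µm in 3 of 3 naive rats. No test was made on ratios.

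**Figure D3:**
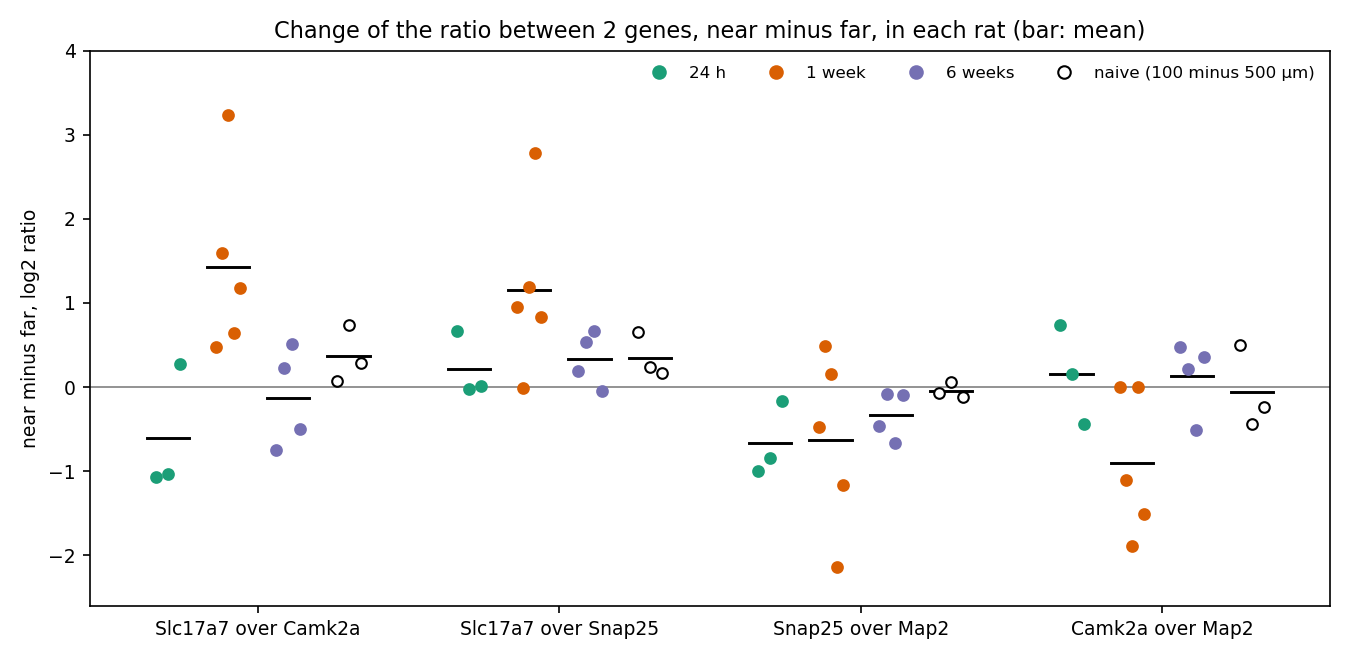
Near minus far change of the log2 ratio between 2 genes in each rat (points) with the mean (bar), by time, and the 100 minus 500 µm change in naive rats (open circles). With all libraries, the ratio of *Slc17a7* to *Camk2a* lay above 0 in the 5 rats at 1 week, between 0.48 and 3.24, and that of *Snap25* to *Map2* lay below 0 in every rat at 24 h and 6 weeks.

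Naive cortex was sampled at the same 2 positions without an implant. *Slc17a7* measured 563, 767 and 570 CPM at the 100 µm position and 425, 578 and 560 at 500 µm in rats n2, n3 and n5. *Snap25* measured 855, 950 and 879 CPM against 1010, 845 and 966. *Camk2a* measured 689, 455 and 520 CPM against 547, 572 and 625, and *Map2* 2064, 2540 and 2093 against 2317, 2361 and 2127. Between these positions 0 of the 4 genes were called by edgeR or DESeq2, 0 had an unadjusted p under 0.05 in edgeR, and 0% of all 11839 genes were called. The fitted differences at 100 against 500 µm were 0.24 ± 0.22 for *Slc17a7*, -0.11 ± 0.19 for *Snap25*, -0.13 ± 0.23 for *Camk2a* and -0.07 ± 0.15 for *Map2*. The median of all genes in this comparison was 0.40, against -0.39 for the mean over times in implanted rats. Relative to the naive median, *Camk2a* lay at -0.54, *Snap25* at -0.52, *Map2* at -0.48 and *Slc17a7* at -0.17. In implanted rats the same measure was -0.33, -0.65, -0.12 and -0.10. On this scale the 4 genes thus lay below the median without an implant too. Fewer genes were detected at 100 than at 500 µm in 0 of 3 naive rats.

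Near *Camk2a* was lower than in naive tissue at each of the 3 times. Its mean was 555 ± 121 CPM (SD, n = 3) at the naive 100 µm position, and near the shank 317 ± 58.5 at 24 h (n = 3), 166 ± 87.9 at 1 week (n = 5) and 326 ± 53.2 at 6 weeks (n = 4). Near values lay wholly below naive values at each of the 3 times, which held for 12.2%, 8.22% and 7.97% of all genes at 24 h, 1 week and 6 weeks. *Camk2a* did so also without TMM and without the libraries of few genes, when its means were 266 ± 49.6 CPM at 24 h (n = 3) and 212 ± 78.0 at 1 week (n = 4). *Snap25* lay wholly below naive tissue at 1 week, though not without TMM. At 24 h near *Slc17a7* and *Snap25* lay wholly below naive tissue without TMM, and overlapped it with TMM. The shares of all genes given here are under TMM with all libraries, and none was computed for the other scalings. In all comparisons of near or far tissue with naive tissue, the implant and the library series, which differs between the deposited tables, cannot be told apart. The 3 times also share the naive rats.

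*Camk2a* fell by 1.73 ± 0.37 on the log2 scale near the shank at 1 week against naive tissue (edgeR adjusted p = 0.0104), the only call among the 4 genes. The share of all genes called was 0.0578% at 24 h, 0.123% at 1 week and 0.0434% at 6 weeks. Without the libraries of few genes the 1 week value was -1.39 (adjusted p = 0.0625). *Camk2a* differed by -0.79 ± 0.42 at 24 h (adjusted p = 0.811) and by -0.75 ± 0.39 at 6 weeks (adjusted p = 1). At 24 h *Slc17a7* alone had an unadjusted p under 0.05 (-0.75 ± 0.35, edgeR adjusted p = 0.811), and at 6 weeks 0 of the 4 had one. DESeq2 called 0 of the 4 at 24 h and at 6 weeks.

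In far tissue *Map2* and *Camk2a* stood on opposite sides of naive tissue, although neither passed edgeR's test. Here too the implant and the library series cannot be told apart. *Map2* averaged 2268 ± 125 CPM at the naive 500 µm position (n = 3), and in far tissue 3057 ± 317 at 24 h (n = 3), 2943 ± 481 at 1 week (n = 5) and 3309 ± 194 at 6 weeks (n = 4). Every far value of *Map2* lay above every naive value at each time, which held for 5.88%, 2.31% and 3.27% of all genes. At 6 weeks this held under each scaling, but at 24 h and 1 week not without TMM, and at 1 week not without the libraries of few genes (2845 ± 612 CPM, n = 5). *Camk2a* averaged 582 ± 39.9 CPM in naive tissue and 438 ± 70.2, 410 ± 120 and 365 ± 57.5 in far tissue at 24 h, 1 week and 6 weeks. It lay wholly below naive tissue at 24 h and 6 weeks, as did 4.85% and 4.11% of all genes, and both held without TMM. Far *Camk2a* at 1 week averaged 352 ± 43.8 CPM (n = 5) without the libraries of few genes and then lay wholly below naive tissue too. *Snap25* in far tissue also lay wholly above naive tissue at 24 h, though not without TMM. At 6 weeks it did so with TMM, without TMM and without the libraries of few genes. When only far and naive 500 µm sums were scaled together, as for the 3.27%, *Snap25* overlapped at 6 weeks. *Slc17a7* lay wholly above naive tissue only at 24 h without TMM. No share of all genes was computed without TMM or without the libraries of few genes.

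By edgeR none of the 4 genes was called in far against naive tissue, for which 0.00748%, 0.127% and 0.0598% of all genes were called at 24 h, 1 week and 6 weeks. The number with an unadjusted p under 0.05 was 2 at each time: *Slc17a7* and *Map2* at 24 h, and *Camk2a* and *Map2* at 1 week and 6 weeks. *Map2* differed by 0.39 ± 0.15, 0.33 ± 0.14 and 0.50 ± 0.14 at the 3 times (adjusted p = 0.642, 0.481 and 0.243). *Camk2a* differed by -0.45 ± 0.25, -0.55 ± 0.22 and -0.72 ± 0.24 (adjusted p = 0.660, 0.481 and 0.451). DESeq2 called *Map2* at 6 weeks (0.56, adjusted p = 0.0112) and 0 of the 4 at the other times.

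Near *Map2* lay around the naive level. It averaged 2112 ± 958 CPM at 24 h, 1996 ± 662 at 1 week and 2706 ± 246 at 6 weeks, against 2232 ± 267 at the naive 100 µm position. In the order of the 8 group means, *Map2* at 6 weeks near was above both naive groups, and the step from it to the naive 500 µm group exceeded the larger of the 2 SDs under TMM. Without TMM those means were 2447 and 2389 CPM, closer than that SD. Under TMM, for *Slc17a7* no neighbouring pair in the order differed by more than that SD, from 731 ± 190 CPM in far tissue at 24 h to 374 ± 198 near at 24 h. For *Snap25* only far tissue at 6 weeks (1153 ± 150 CPM) and the naive 500 µm group (940 ± 85.6 CPM) were separated by more, and for *Camk2a* only near tissue at 24 h and near tissue at 1 week. This last step, from 266 to 212 CPM without the libraries of few genes, was then smaller than the SD of 78.0.

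Between times at one distance, 0 of the 4 genes were called by edgeR or DESeq2. In near tissue 0.0469%, 0.00781% and 0.0234% of all genes were called (1 week against 24 h, 6 weeks against 1 week, 6 weeks against 24 h). The members with an unadjusted p under 0.05 in edgeR were *Slc17a7* and *Camk2a* in the first, *Camk2a* in the next and none in the last. In far tissue 0% of genes were called in each of these 3 comparisons, and 0 of the 4 had an unadjusted p under 0.05.

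The median difference between the hemispheres of a rat was larger near the shank than in far or naive tissue for each gene. Near tissue had 6 rats with both hemispheres sampled, and the median left-right difference there was 0.92 on the log2 scale for *Slc17a7*, 0.88 for *Map2*, 0.71 for *Camk2a* and 0.53 for *Snap25*. In far tissue the medians over 6 rats were 0.24, 0.13, 0.49 and 0.28, and over 6 naive pairs, 2 for each rat, they were 0.27, 0.42, 0.52 and 0.19. Without the libraries of few genes the near medians over 4 rats were 1.10, 1.03, 0.65 and 0.79, and the far medians over 5 rats 0.19, 0.09, 0.42 and 0.28. The highest near value was 3.14, for *Snap25* in rat 19 at 6 weeks. *Map2* differed by 1.83 and 1.69 between the hemispheres of rats 17 and 19 at 6 weeks. No test was made of this spread.

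**Figure D4:**
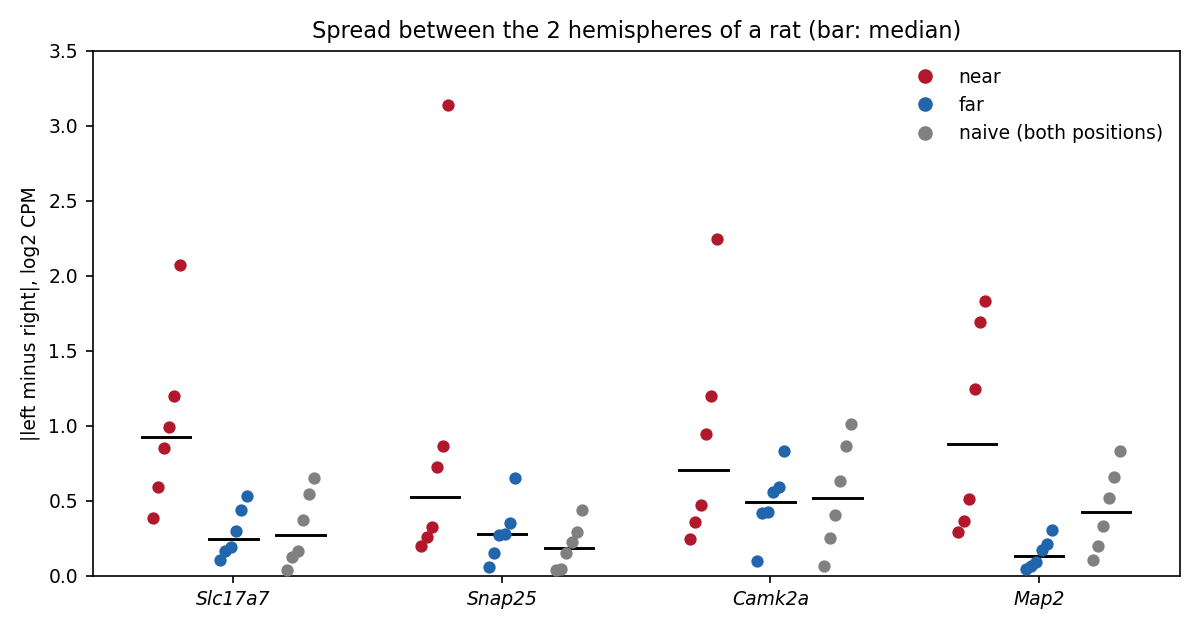
Absolute left minus right difference in log2 CPM within a rat for near, far and naive tissue (points), with the median (bar), for each gene. The near points reach 3.14 (*Snap25*), while no far point exceeds 0.83.

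Taking each hemisphere alone, *Snap25* and *Camk2a* were lower near in 16 of 18 hemispheres, *Map2* in 14 and *Slc17a7* in 11. All 4 genes were lower in 9 of 18. Among the 14 hemispheres without a library of few genes these counts were 12, 12, 11 and 9, and all 4 genes were lower in 7. Hemispheres of a rat are not independent replicates. No share of all genes was computed by hemisphere. In the fit by rat, 64.1% of all genes lay below 0 in the mean of the times, and 71.0% of those at least as abundant as *Camk2a*.

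Across the 24 near and far sums, *Snap25* and *Map2* varied most alike (Pearson r = 0.76, Spearman rho = 0.67), and *Slc17a7* and *Camk2a* least (r = -0.10, rho = 0.15). *Slc17a7* and *Snap25* gave r = 0.58, *Camk2a* and *Map2* 0.55, *Slc17a7* and *Map2* 0.41, and *Snap25* and *Camk2a* 0.29. Over the 23 sums without the libraries of few genes, *Snap25* and *Map2* gave r = 0.85 and *Slc17a7* and *Camk2a* r = 0.28. These values describe sums that share rats and scaling and carry no test. Among the 3153 genes whose log2 CPM averaged 5 or more, the 2 most similar to the mean of the 4 genes were ENSRNOG00000015420 (r = 0.93) and ENSRNOG00000004794 (r = 0.92), over 24 sums. The deposited tables do not pair identifiers with names. ENSRNOG00000015420 averaged 332 ± 149, 333 ± 149 and 448 ± 88.8 CPM near the shank at 24 h, 1 week and 6 weeks, and 581 ± 35.8, 660 ± 159 and 707 ± 91.7 in far tissue.

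Only part of the calls held when the processing was varied. Of 19 alternatives for the mean over times, *Map2* was called in 18, *Snap25* in 17, *Camk2a* in 8 and *Slc17a7* in 4, and each stayed negative in all 19. At 1 week *Camk2a* was called in 9 of 13, *Snap25* in 7 and *Map2* in 4. At 24 h *Snap25* was called in 4 of 11, *Slc17a7* in 3 and *Map2* in 2.

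**Figure D5:**
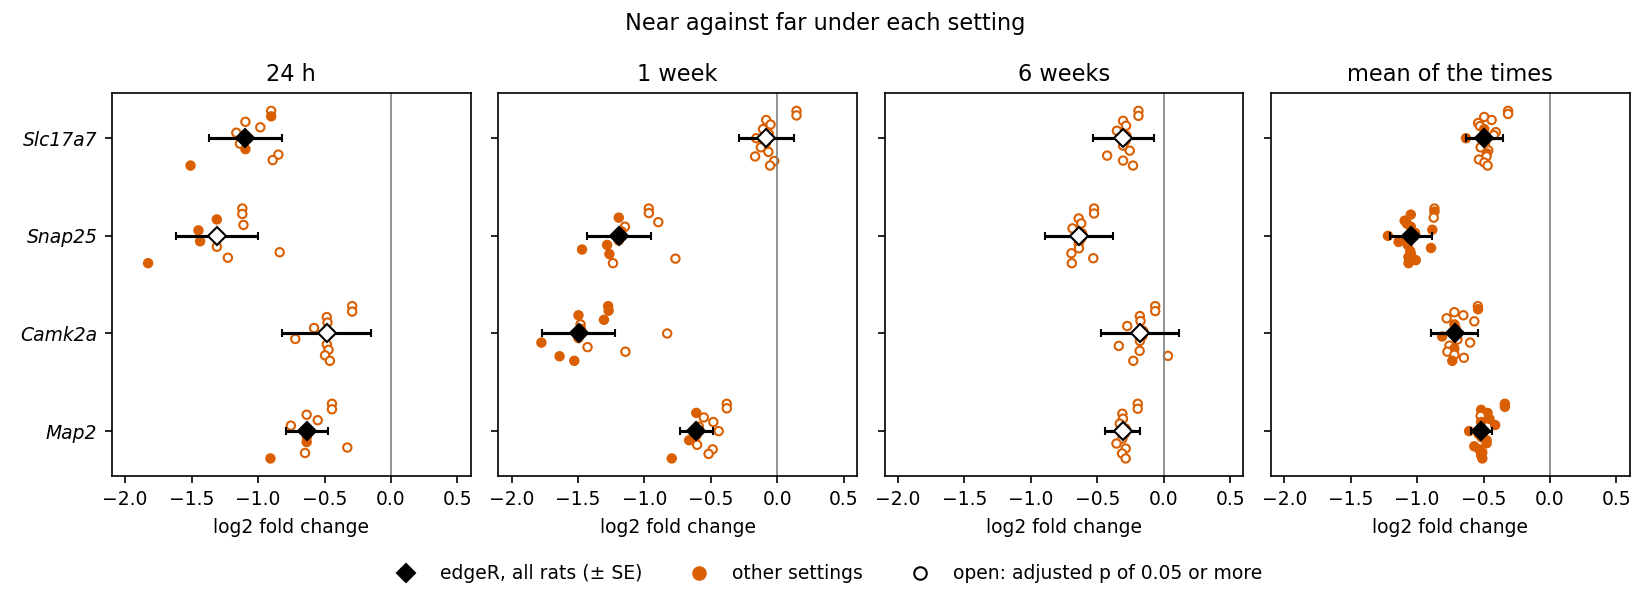
Log2 fold change of near against far tissue for each gene at each time and for the mean of the times, by edgeR with all rats (diamonds, ± SE) and under each other setting (circles), with open symbols for an adjusted p of 0.05 or more. Filled circles are most frequent for *Map2* and *Snap25* in the mean of the times, and every symbol at 6 weeks is open.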

How the data were processed

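The deposited values are raw counts of reads per gene, in whole numbers, from laser-captured rat motor cortex. Per the submitters' processing notes, which give neither role nor order, the build was Rnor_6.0 and the tools included STAR 2.6.1b and RSEM 1.3.1. No source used here says whether the authors rounded estimated counts. Symbols of the 4 genes came with the choice of genes. The reference table matched 0 identifiers to a symbol, so pathway and cell type marker lists were not analysed here. The members and lists were chosen with earlier results of these data known.

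The rat was the replicate, and its hemispheres were summed per distance. Genes were filtered with filterByExpr, scaled by TMM and tested by the robust quasi-likelihood method of edgeR 4.0.16 (R 4.3.3), with Benjamini-Hochberg adjustment over all genes and calls below 0.05. The SE of a fold change is approximate, its size over the square root of F. The rat was a block in near-far comparisons because the labels give the animal, although paired deviations correlated at only 0.00566 to 0.0883 across genes. A first fit filtered genes by the design matrix, and the group form used here was set after its results were seen. Alternatives included DESeq2 1.42.0. Only the near-far fit was tried on simulated data, for the 1 week comparison, and the other fits were not. The genes named are all 4 members and the 2 most similar genes. No libraries of a group agreed within sampling noise. Whether rats within a group were processed as separate batches is not given.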

Additional observations from a re-analysis of the deposited data

How the results depend on the processing

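Fold changes below are log2, near against far unless stated, with edgeR adjusted p unless DESeq2 is named. The form of the low-count filter, chosen after a first fit was seen, changed no call: with the design-matrix filter, also an alternative chosen after seeing the data, all 4 genes were called in the mean of the times, and *Snap25* at 24 h gave an adjusted p of 0.161. Leaving out the 4 libraries of few genes was likewise chosen after seeing the data, as were the values by rat without TMM.

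With DESeq2 size factors in edgeR, calls were lost for *Slc17a7* at 24 h (-0.90) and in the mean (-0.32), *Map2* at 24 h (-0.44) and 1 week (-0.38), *Snap25* at 1 week (-0.97) and in the mean (-0.87), and *Camk2a* in the mean (-0.54). The DESeq2 Wald test lost *Map2* at 24 h (-0.44) and 1 week (-0.38), *Snap25* at 1 week (-0.97) and *Slc17a7* in the mean (-0.32). Both turned *Slc17a7* at 1 week to 0.14. Without a low-count filter *Slc17a7* (-1.10) and *Map2* (-0.63) at 24 h and *Slc17a7* (-0.49) and *Camk2a* (-0.72) in the mean were lost, and *Snap25* at 24 h was gained (-1.31). With the rats of a time alone, *Slc17a7* (-1.07) and *Map2* (-0.61) at 24 h and *Map2* at 1 week (-0.59) were lost. The cause of these changes was not tested.

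Without the replicate block, the values were -0.98 (*Slc17a7*) and -0.55 (*Map2*) at 24 h, -0.90 (*Snap25*) and -0.55 (*Map2*) at 1 week, and -0.44 (*Slc17a7*), -0.88 (*Snap25*) and -0.65 (*Camk2a*) in the mean, all no longer called. The change of the *Map2* difference from 24 h to 1 week was then 0.00, with its sign turned. With the replicate block and libraries not summed, *Slc17a7* (-1.16) and *Map2* (-0.75) at 24 h, *Snap25* (-1.15), *Camk2a* (-1.48) and *Map2* (-0.48) at 1 week, and *Slc17a7* (-0.54), *Camk2a* (-0.78) and *Map2* (-0.52) in the mean were lost, and *Snap25* at 24 h was gained (-1.45).

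Without the 4 libraries of few genes, *Slc17a7* (-1.14) and *Map2* (-0.63) at 24 h, *Camk2a* (-0.83) and *Map2* (-0.44) at 1 week, *Slc17a7* (-0.53) and *Camk2a* (-0.57) in the mean, and *Camk2a* at 1 week against naive tissue (-1.39) were lost, the last leaving 0 of the 4 genes called there, and *Snap25* at 24 h was gained (-1.44). The change of the *Camk2a* near-far difference was then -0.11 from 24 h to 1 week, where all libraries gave -1.01, and 0.67 from 1 week to 6 weeks, where they gave 1.32.

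Leaving out 1 rat at a time gave, at 24 h, -1.51 to -0.85 for *Slc17a7* and -0.91 to -0.33 for *Map2* (both lost without rat 25 or 29), and -1.83 to -0.84 for *Snap25* (called without rat 30). At 1 week it gave -1.47 to -0.77 for *Snap25* (lost without rat 22 or 23), -1.78 to -1.14 for *Camk2a* (lost without rat 10 or 20) and -0.79 to -0.49 for *Map2* (lost without rat 10, 20 or 22). In the mean it gave -0.63 to -0.41 for *Slc17a7* (lost without rats 25, 29, 10, 20, 22, 2, 11, 17 or 19) and -0.81 to -0.60 for *Camk2a* (lost without rats 10, 20, 22, 2, 11 or 17). *Camk2a* at 6 weeks ran from -0.34 to 0.03, turning sign without rat 17. The change of the near-far difference from 24 h to 1 week ran from -0.36 to 0.63 for *Snap25* and from -0.29 to 0.30 for *Map2*.

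Against naive tissue, near *Camk2a* at 1 week ran from -1.88 to -1.45 over left-out rats (lost without rat 10 or n2, so 0 to 1 genes called). Small uncalled values turned sign: near *Map2* at 24 h (0.08 with both DESeq2 scalings, -0.48 to 0.21 over left-out rats) and at 1 week (0.14, and -0.29 to 0.02), near *Slc17a7* at 1 week (0.28, 0.02 with naive positions summed, and -0.16 to 0.13), and far *Snap25* at 1 week (0.02, and -0.13 to 0.05). DESeq2 called 1 gene in 2 comparisons in which edgeR called 0: *Slc17a7* in the change from 24 h to 1 week (1.05) and far *Map2* at 6 weeks (0.56). The lowest count of the 4 genes in a library was 210, and the 3 to 5 rats per group limited the precision.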
